A study of Mus musculus with 3 samples.

Results

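Stromal cells of day 5 ectopic masses were compared between mice that received palovarotene and mice that received vehicle, both after implantation of BMP2. A cell counted as stromal when *Col1a1*, *Col1a2*, *Col3a1*, *Dcn* and *Lum* together made up at least 1% of its unique molecular identifiers (UMIs, 1 per captured RNA molecule). By this rule 1373 of 5478 Vehicle cells and 1184 of 7297 Palo cells were stromal, which is 2557 of 12775 cells of the pair. The 3 groups were female CD-1 mice of 6 to 8 weeks with no genetic change given, with subcutaneous implants of Matrigel, a basement membrane gel. Vehicle mice carried recombinant human BMP2 in the gel and took corn oil with DMSO by mouth. Palo mice carried the same BMP2 gel and took palovarotene at 4 mg/kg daily, and Matrigel-only mice had neither BMP2 nor any oral agent. Each group was 1 droplet library of cells pooled from several masses, so no difference below has a replicate check, no test was run, and the intervals cover counting error only.

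Heterotopic ossification (HO) is the formation of bone in soft tissue. BMP2, a secreted growth factor of the TGF-β superfamily, induces it through endochondral ossification, in which mesenchymal progenitors condense, become chondrocytes that lay down a type II collagen and aggrecan matrix, and are then replaced by bone. Palovarotene is an agonist of the retinoic acid receptor γ, a nuclear receptor, and retinoid signaling is known to oppose chondrogenesis. The comparison asks which genes differ in the stromal compartment, which contains these progenitors, when BMP2 acts with and without the drug.

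The cells carried stromal markers. All 8 stromal markers that the rule did not use (*Pdgfra*, *Prrx1*, *Col5a1*, *Col6a1*, *Sparc*, *Fbn1*, *Mmp2* and *Bgn*) were measured in both libraries, with a summed level of 23958 CPM in Vehicle and 29235 CPM in Palo (CPM is a gene's UMIs scaled to a common total of all stromal UMIs of the library), against 377 and 164 CPM in the remaining cells. *Pdgfra*, which encodes a receptor of mesenchymal progenitors, was at 89.2 CPM in Vehicle and 205 CPM in Palo stromal cells and at 2.35 and 1.32 CPM in the remaining cells. Of the 5 genes that defined the cells, and which are given as a description only, *Col3a1* differed most, with 11387 CPM in Vehicle and 24671 CPM in Palo. The boundary was filled more in Vehicle than in Palo, with 52 Vehicle and 10 Palo cells between 0.5 and 1% and with 99 and 8 between 1 and 2%.

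Stromal cells were 25.1% of the Vehicle cells (95% exact binomial interval 23.9 to 26.2%) and 16.2% of the Palo cells (15.4 to 17.1%), a difference of 8.84 percentage points (7.42 to 10.3). They were 23.9% of the 8728 Matrigel-only cells. Their median depth was 17114 UMIs in Vehicle, 12955 in Palo and 9082 in Matrigel-only, and 99 further Vehicle and 21 further Palo stromal cells lay above the limit of 6000 genes. UMIs of 871 Vehicle stromal cells (63.4%) included *Acan* or *Col2a1*, against 4 Palo and 2 Matrigel-only cells. Between Vehicle and Palo 11 cell barcodes were shared, of which 0 were stromal in both. Markers of T and NK cells, granulocytes, basophils, B cells, endothelium, pericytes, skeletal muscle, epithelium and Schwann cells had 0 members at 20 CPM. Macrophage markers were low but not absent, with a summed level over 12 genes of 371 CPM in Vehicle, 900 CPM in Palo and 1103 CPM in Matrigel-only, 0 of the 12 at zero, and 21608 and 29732 CPM in the remaining Vehicle and Palo cells.

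Of 31053 genes, 6795 reached 20 CPM in Vehicle or Palo and are described, 805 of them at 20 to 25 CPM, while another 1026 reached 15 to 20 CPM only. With 5 CPM added to each level, 289 of them (4.25%) were at least 2-fold lower in Palo and 381 (5.61%) at least 2-fold higher. At 4-fold the counts were 101 lower (1.49%) and 67 higher (0.986%). At 8-fold 42 genes (0.618%) were lower and 6 (0.0883%) higher. Most genes differed little, since 5441 (80.1%) lay within 1.5-fold and the median log2 ratio of Palo over Vehicle was -0.01. Below, "lower" and "higher" compare Palo with Vehicle, and log2 ratios are on the scale of CPM plus 5, which understates differences of scarce genes. Intervals of a log2 ratio and fold values of single genes were taken without the added 5 CPM, so an interval need not hold the log2 ratio. A gene that reached 20 CPM in just Vehicle or just Palo was admitted by its higher side, which favored its direction. The summed counts cannot tell fewer cells of a kind from less RNA per cell.

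**Figure D1:**
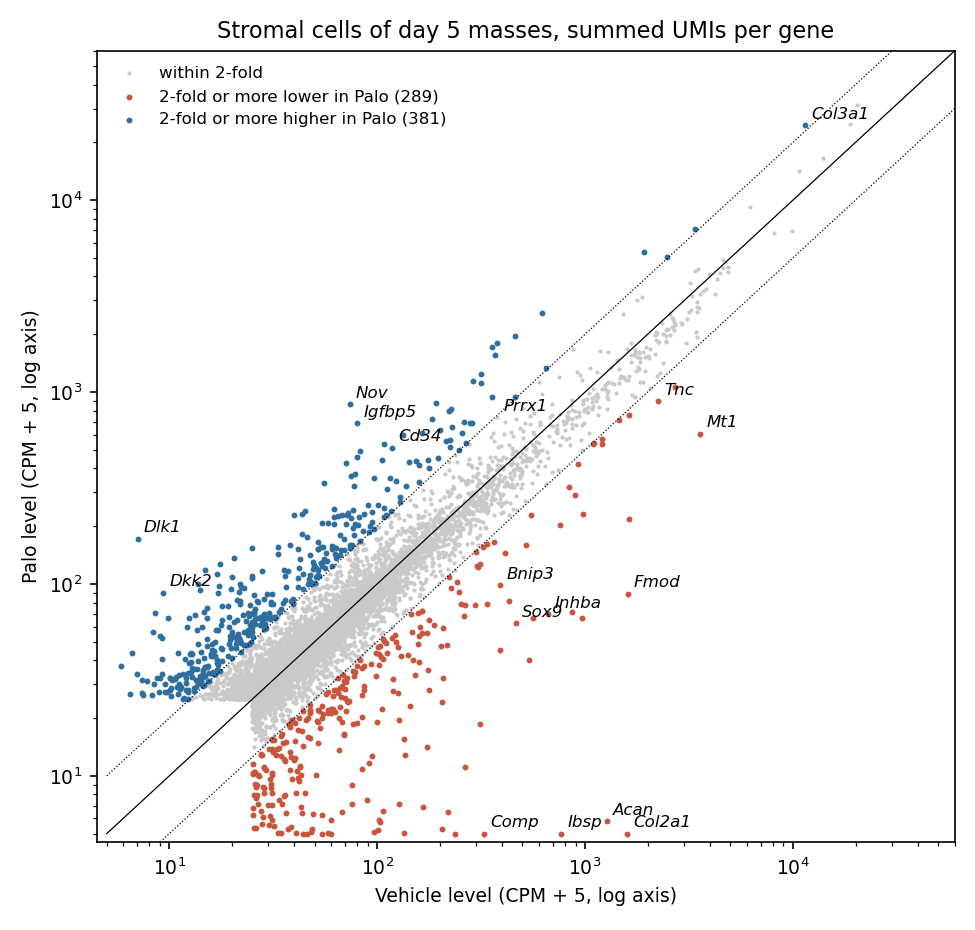
Level of each of 6795 genes in stromal cells of the Vehicle library (x axis, CPM plus 5, log axis) and of the Palo library (y axis, same unit). The solid line marks equal levels and the dotted lines 2-fold. The 289 genes in red and 381 in blue are past 2-fold, and the cartilage genes *Col2a1* and *Acan* lie at the floor of the Palo axis.

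The lower end was led by the matrix of cartilage. *Col2a1*, the main fibrillar collagen of cartilage, had 37404 UMIs in Vehicle (1586 CPM, 95% exact Poisson interval 1569 to 1602), 0 UMIs in Palo and 0.0499 CPM in Matrigel-only. Set against 3 counts in the Palo library, it was at least 8367-fold lower. *Acan*, which encodes the proteoglycan aggrecan, stood at 1269 CPM in Vehicle, 0.821 CPM in Palo (13 UMIs) and 0.0499 CPM in Matrigel-only, with a log2 interval of the ratio from -11.50 to -9.82. Both transcripts were abundant in Vehicle, and the Palo library, like the library without BMP2, held almost none of either.

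Other cartilage matrix genes lay alongside them. *Comp*, cartilage oligomeric matrix protein, had 320 CPM in Vehicle and 0 UMIs in Palo (at least 1690-fold lower), and *Col9a1*, a chain of type IX collagen, 231 CPM and 0 UMIs (at least 1220-fold lower). *Hapln1*, the link protein that ties aggrecan to hyaluronan, had 3051 UMIs in Vehicle (129 CPM) and 1 in Palo, with a log2 interval of the ratio from -16.30 to -8.52. *Fmod*, fibromodulin, a small leucine-rich proteoglycan of cartilage and tendon, kept a measurable level, with 1599 CPM in Vehicle, 84.1 CPM in Palo and 45.2 CPM in Matrigel-only, a 19.0-fold difference. Of 17 measured cartilage matrix genes, 13 had 20 CPM on one side, and the others were at most 2.46 CPM in either library. Of the 13, 12 were at least 2-fold lower and 0 higher, against 4.25% and 5.61% of all described genes, and their median log2 ratio was -4.59. All but *Col27a1* and *Col11a1* (61.8 CPM in Palo) reached 20 CPM through Vehicle only, so the minimum level favored lower ratios. The exception, *Col27a1*, had a log2 ratio of -0.96, with 193 CPM in Vehicle and 96.7 CPM in Palo.

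The share of cells carrying these transcripts differed in the same direction once each cell was thinned to 3100 UMIs, which left 1303 Vehicle and 1130 Palo stromal cells and took out 70 and 54 shallower ones. *Acan* was then detected in 50.3% of the Vehicle cells (95% exact interval 47.5 to 53.0%) and 0.132% of the Palo cells. *Col2a1* was detected in 25.4% of the Vehicle cells and in 0 of 1130 Palo cells, which allows a share of up to 0.265%. In the remaining cells, mostly leukocytes with a median of 3208 UMIs in Vehicle and 4156 in Palo, the thinned shares of *Col2a1* were 4.55% and 0.00585%. The stromal share in Vehicle was thus above that background, and unthinned shares were 36.3% for *Col2a1* and 56.7% for *Acan*.

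Genes of osteoblasts and of the chondrocyte to bone transition stood in the same order. *Ibsp*, bone sialoprotein, had 765 CPM in Vehicle and 0 UMIs in both Palo and Matrigel-only, at least 4036-fold lower in Palo. *Sp7*, which encodes the osteoblast transcription factor osterix, was at 102 CPM in Vehicle, 1.58 CPM in Palo and 1.30 CPM in Matrigel-only. *Alpl*, the alkaline phosphatase needed for mineral deposition, had 2155 UMIs in Vehicle and 2 in Palo (log2 interval -12.54 to -7.64). Of 14 osteoblast genes 5 reached 20 CPM, and all 5 were at least 2-fold lower (median log2 ratio -4.03), *Spp1* and *Mmp13* among them. By 2-fold 4.25% of all described genes were lower. *Spp1* passed 20 CPM in both libraries (428 CPM in Vehicle, 76.9 CPM in Palo), and was lower in the remaining cells too (140 and 55.0 CPM). The other described members reached 20 CPM through Vehicle only, which favored their direction. Genes of later bone and of hypertrophic cartilage were scarce in both libraries, with *Bglap* at 0.0848 and 0.316 CPM and *Col10a1* at 0.212 and 0 CPM.

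**Figure D2:**
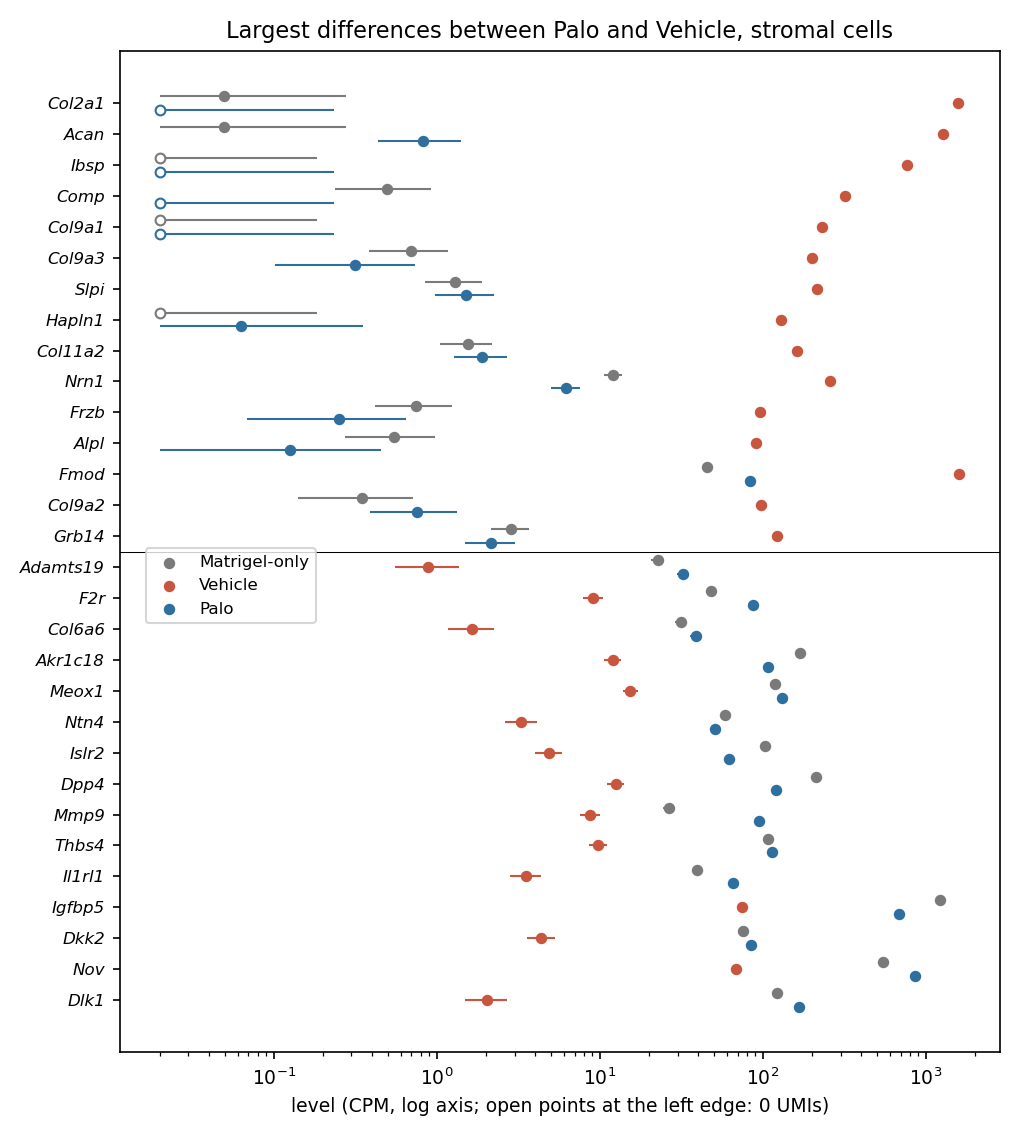
Levels (x axis, CPM, log axis) in the stromal cells of 3 libraries for the 15 genes with the largest ratio in each direction (y axis), with bars for the 95% Poisson intervals and open points for 0 UMIs. In the upper block Vehicle stands apart at the right, and in the lower block Vehicle stands apart at the left while Palo and Matrigel-only lie near each other.

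Among regulators of chondrogenesis, *Sox9*, the transcription factor that commits mesenchymal cells to cartilage, differed by less than the matrix genes. It was at 461 CPM in Vehicle (95% interval 452 to 469), 57.3 CPM in Palo and 53.5 CPM in Matrigel-only, 8.04-fold lower in Palo, and 13.7% of thinned Palo cells still had a UMI against 55.8% of Vehicle cells and 0.0852 and 1.91% of the remaining Palo and Vehicle cells. Its partners *Sox5* and *Sox6*, which act with it on the cartilage matrix genes, had log2 ratios of -1.54 and -3.01. The growth plate receptors *Fgfr3* and *Pth1r*, for FGF and for parathyroid hormone related protein, had -3.19 and -2.16. *Runx2*, the factor that drives osteoblasts and hypertrophic chondrocytes, stayed within 2-fold, with 82.6 CPM in Vehicle and 49.6 CPM in Palo. In all, 7 of 10 described regulators were at least 2-fold lower, and 1, the homeobox gene *Barx2*, was higher (14.4 CPM in Vehicle, 43.6 CPM in Palo). By 2-fold 4.25% of all described genes were lower and 5.61% higher. *Fgfr3*, *Sox5*, *Sox6*, *Foxc1* and *Trps1* reached 20 CPM through Vehicle only and *Barx2* through Palo only, which favored their directions.

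Ligands and receptors of activin and TGF-β did not share a direction. *Inhba*, which encodes the βA subunit of activin A, was at 660 CPM in Vehicle (649 to 670), 64.4 CPM in Palo (60.5 to 68.4) and 23.0 CPM in Matrigel-only, 10.2-fold lower in Palo. The ligand *Tgfb2* (155 and 54.8 CPM in Vehicle and Palo), the activin antagonist *Fstl3* (61.3 and 17.9 CPM) and the TGF-β-induced matrix protein *Tgfbi* (753 and 198 CPM) were also lower. The TGF-β receptors went the other way, with *Tgfbr2* at 159 CPM in Vehicle, 603 CPM in Palo and 797 CPM in Matrigel-only, and *Tgfbr3* at 32.1, 112 and 188 CPM. Another activin antagonist, follistatin (*Fst*), was higher but within 2-fold, at 73.3, 119 and 140 CPM. Of 16 described genes 4 were lower and 2 higher by 2-fold, with a median of 0.13 in all stromal cells and of -0.21 when cells with cartilage UMIs were left out. The shares over all described genes were 4.25% lower and 5.61% higher.

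The direct targets of BMP signaling differed modestly, and one way in all stromal cells. *Id1* and *Id3*, inhibitors of differentiation switched on by BMP receptors, were 1.97-fold lower each, with *Id3* at 642 CPM in Vehicle, 326 CPM in Palo and 241 CPM in Matrigel-only. All 6 described targets were lower, by log2 ratios from -0.97 to -0.25, and 0 passed 2-fold on the scale used. By any amount 50.8% of all described genes were lower. When cells with cartilage UMIs were left out the list median was -0.67, and *Id2* had a log2 ratio of 0.07. *Bambi*, a decoy receptor that is itself induced by BMP, was at 71.5 CPM in Vehicle, 13.7 CPM in Palo and 7.88 CPM in Matrigel-only. Some secreted BMP antagonists were higher, with *Grem1* at 20.6 and 64.6 CPM and *Chrdl1* at 9.79 and 31.7 CPM in Vehicle and Palo. *Chrdl1* reached 20 CPM through Palo only, and had a log2 ratio of 0.71 without cells holding cartilage UMIs. Another antagonist, the scarce *Nog*, had 29 UMIs in Vehicle and 0 in Palo. Of 8 described BMP ligands, antagonists and receptors 3 were higher and 1 lower by 2-fold, against 5.61% and 4.25% of all described genes. The type I receptor *Acvr1* had 87.8 and 42.7 CPM, and *Bmpr1a* 61.8 and 68.7 CPM.

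Genes of retinoid signaling, the pathway that the drug addresses, showed no shared direction. The receptor *Rarg* was at 49.9 CPM in Vehicle, 33.4 CPM in Palo and 35.0 CPM in Matrigel-only, while *Rara*, *Rxra* and *Rxrb* each lay within 1.5-fold. *Cyp26b1*, an enzyme that degrades retinoic acid and is usually induced by it, was 2.44-fold lower (94.0 CPM in Vehicle, 38.5 CPM in Palo). *Rarb*, a receptor gene that is itself a classical retinoic acid target, had 25 UMIs in Vehicle and 51 in Palo (1.06 and 3.22 CPM, log2 interval of the ratio 0.89 to 2.36), and Matrigel-only, without drug, had 4.34 CPM. *Aldh1a1*, which makes retinoic acid, was at 3.48 CPM in Vehicle, 24.9 CPM in Palo and 39.3 CPM in Matrigel-only, and *Crabp1*, a retinoic acid binding protein, at 0.212, 16.2 and 16.6 CPM. Of 12 described retinoid genes 2 were lower and 2 higher by 2-fold, with a median of -0.20. The shares over all described genes were 4.25% lower and 5.61% higher.

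Genes of glucose use and of the response to low oxygen were lower almost throughout in stromal cells, and their list sums were lower in the remaining cells too. Hypoxia-inducible factors bind the letters ACGTG or GCGTG near many of these genes. Of the 6 hypoxia-induced genes named by rule, *Ndrg1* has no entry in the promoter table. The first listed promoter of each gene was read, cut to the bases upstream of both the RefSeq and the GENCODE start. In these stretches *Bnip3*, *Ddit4* and *Egln3* had such letters, and *Car9* (190 bases left) and *Car12* (250 bases) had 0 matches. The 3 stretches with a match are shown, to give the letters beside the values of their genes. They are RefSeq promoter sequence on GRCm38.p6, written 5′ to 3′ on the minus strand for each, with capitals for matches on either strand. *Bnip3* is given at chr7:138909520-138909756, *Ddit4* at chr10:59951835-59952020 and *Egln3* at chr12:54203875-54204124.
Bnip3: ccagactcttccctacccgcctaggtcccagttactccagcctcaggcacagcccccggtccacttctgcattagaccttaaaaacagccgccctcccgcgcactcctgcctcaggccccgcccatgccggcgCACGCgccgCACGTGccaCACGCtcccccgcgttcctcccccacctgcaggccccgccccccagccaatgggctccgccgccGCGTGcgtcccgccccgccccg
Ddit4: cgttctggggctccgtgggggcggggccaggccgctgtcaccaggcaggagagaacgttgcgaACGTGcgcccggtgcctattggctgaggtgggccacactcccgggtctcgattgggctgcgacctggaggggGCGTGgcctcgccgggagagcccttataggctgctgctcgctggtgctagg
Egln3: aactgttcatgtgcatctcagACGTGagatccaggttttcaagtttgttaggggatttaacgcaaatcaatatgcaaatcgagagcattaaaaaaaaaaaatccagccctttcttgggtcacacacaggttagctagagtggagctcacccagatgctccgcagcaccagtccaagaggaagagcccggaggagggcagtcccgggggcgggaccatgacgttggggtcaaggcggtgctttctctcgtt
The *Bnip3* stretch held 5 matches, in part overlapping since CACGTG reads the same on both strands, *Ddit4* held 2 and *Egln3* 1. At 250 upstream bases, 41.5% of 27025 genes with a RefSeq promoter and 64.9% of the 5372 described genes with one held either set of letters. Of the listed genes, 18 of 19 hypoxia-induced, 15 of 17 glycolysis, 1 of 10 cartilage matrix and 5 of 14 fibroblast progenitor genes did. These shares read all 250 bases of every listed promoter of a gene, so a gene with 0 matches in its cut stretch can count here. A match is a description of letters and not a measured binding site. Since these factors are known to act on many hypoxia-induced genes, a high share there follows from the choice of list. Whether the factors had a part in the differences was not tested.

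*Bnip3*, a mitophagy receptor, was at 384 CPM in Vehicle (376 to 392), 94.0 CPM in Palo and 173 CPM in Matrigel-only, 4.09-fold lower in Palo. *Egln3*, a prolyl hydroxylase that marks hypoxia-inducible factors for decay, stood at 88.9, 7.71 and 50.2 CPM, and *Ddit4*, an inhibitor of mTORC1, at 171, 30.6 and 49.0 CPM. *Car9*, a membrane carbonic anhydrase, was 17.8-fold lower (70.8 CPM in Vehicle, 3.98 CPM in Palo), and *Vegfa*, the main angiogenic growth factor, 4.01-fold lower (292 and 72.8 CPM). For these 5 genes Palo was also below Matrigel-only. Of 22 hypoxia-induced genes 13 were at least 2-fold lower, 0 higher and 21 lower by any amount, with a median of -1.13. The same shares over all described genes were 4.25%, 5.61% and 50.8%.

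The glycolytic enzymes and transporters had smaller ratios and one direction. *Slc2a1*, the glucose transporter GLUT1, was 5.12-fold lower, with 147 CPM in Vehicle, 28.7 CPM in Palo and 97.3 CPM in Matrigel-only. *Pfkp* and *Hk2*, which catalyze committed steps, had log2 ratios of -1.78 and -1.33, and the abundant *Gapdh*, *Ldha* and *Pkm* had -0.84, -0.87 and -0.88. All 17 glycolysis genes were lower by some amount and 8 by 2-fold or more, with a median of -0.96. Among all described genes 50.8% were lower by any amount and 4.25% by 2-fold. Of the 67 described nuclear genes of the respiratory chain 61 were lower, with a median of -0.23 and 0 past 2-fold, and of 77 ribosomal protein genes 73 were lower, with a median of -0.35. A lower level of these lists is relative to all stromal UMIs, to which the collagens of the rule contributed more in Palo. With the 5 rule genes left out of the total, the hypoxia-induced median was -1.08 and the glycolysis median -0.92. Neither list was lower in stromal cells alone. Among the remaining cells the hypoxia-induced genes summed to 2085 (Vehicle) against 996 CPM (Palo), beside 6311 against 2713 for stroma. Glycolysis genes summed there to 9603 against 6228 CPM, beside 13914 against 7217 for stroma. What lay behind this shared direction was not tested.

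Per cell, the lower share of these genes was not limited to a few cells. The glycolysis genes made up a median of 1.38% of a Vehicle cell's UMIs, 0.636% in Palo and 0.444% in Matrigel-only, and 3.98% of the Palo cells were above the Vehicle median. For hypoxia-induced genes the medians were 0.570, 0.235 and 0.221%, with 3.01% of Palo cells above the Vehicle median. Cells are not replicates, and the cells of each library share their preparation.

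**Figure D3:**
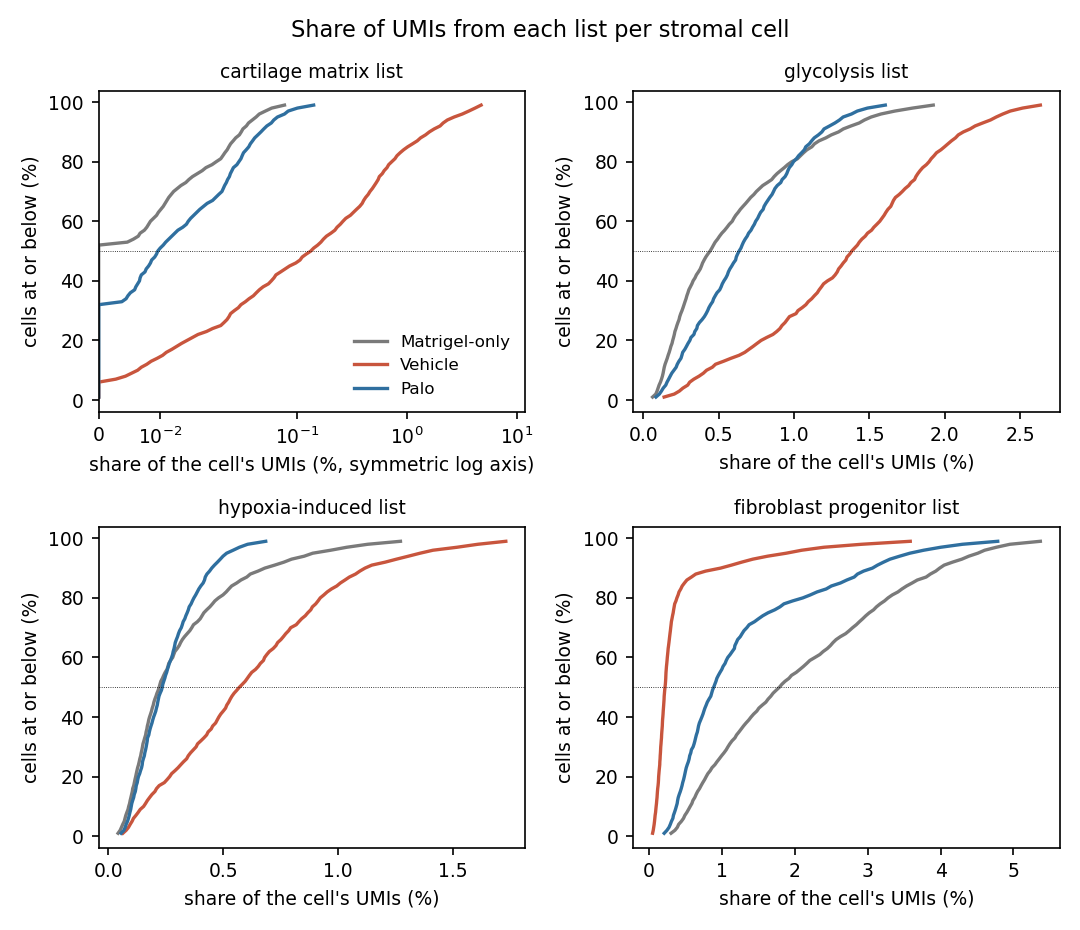
Share of a cell's UMIs that comes from each of 4 gene lists (x axis, percent, symmetric log axis for cartilage matrix) against the percent of stromal cells at or below it (y axis, percentiles 1 to 99), one line per library. For glycolysis and hypoxia-induced genes the Palo line lies left of the Vehicle line at every percentile drawn, and for the fibroblast progenitor list it lies between Vehicle and Matrigel-only.

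The higher end was led by secreted regulators of growth and differentiation. *Dlk1*, a membrane and secreted protein of preadipocytes and fetal mesenchyme, was at 2.03 CPM in Vehicle, 168 CPM in Palo (161 to 174) and 122 CPM in Matrigel-only, 82.3-fold higher in Palo. *Nov*, the matricellular protein CCN3, stood at 68.7, 864 and 549 CPM. *Igfbp5*, which binds insulin-like growth factors, was at 75.0, 683 and 1219 CPM, and *Dkk2*, a Wnt antagonist, at 4.37, 85.2 and 75.4 CPM. In thinned cells *Dlk1* was detected in 0.619% of Vehicle and 16.6% of Palo stromal cells and in 0.0616 and 0.221% of the remaining cells. *Nov* was detected in 7.34 and 57.2% of the stromal and in 1.06 and 1.54% of the remaining cells.

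Markers of adventitial and interstitial fibroblast progenitors were higher as a group. *Cd34*, a sialomucin of these progenitors, was at 113 CPM in Vehicle, 509 CPM in Palo and 916 CPM in Matrigel-only, 4.51-fold higher in Palo. *Dpp4*, a peptidase of reticular progenitors, stood at 12.5, 121 and 212 CPM, *Clec3b*, tetranectin, at 77.4, 489 and 906 CPM, and *Tnxb*, tenascin X, at 66.2, 422 and 766 CPM. *Pi16*, which marks the adventitial fibroblast state, was at 91.7, 352 and 886 CPM. For these 5 genes Palo lay above Vehicle and below Matrigel-only.

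Of all 18 progenitor genes 15 were at least 2-fold higher, with a median of 2.02, and 1 was lower, *Pcolce2*, an enhancer of procollagen cleavage (169 CPM in Vehicle, 50.2 CPM in Palo). Among all described genes 5.61% were higher and 4.25% lower by 2-fold. *Dpp4*, at 12.5 CPM in Vehicle, reached 20 CPM through Palo only, which favored its direction. *Ly6a*, which encodes Sca-1, and *Col15a1* lay within 2-fold. Per cell the list made up a median of 0.219% of UMIs in Vehicle, 0.886% in Palo and 1.79% in Matrigel-only, and 98.8% of the Palo cells were above the Vehicle median.

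Transcription factors of mesenchyme were split. *Meox1* (15.4, 131 and 118 CPM in Vehicle, Palo and Matrigel-only), *Osr1* (15.1, 103 and 103 CPM) and *Osr2* (16.1, 77.0 and 101 CPM), which mark limb and connective tissue mesenchyme, were higher. *Scx*, the tendon and ligament factor, was lower, at 39.9, 3.16 and 4.09 CPM. *Prrx1*, a factor of limb mesenchyme, was at 373 CPM in Vehicle, 734 CPM in Palo and 725 CPM in Matrigel-only, just under 2-fold, and the receptor gene *Pdgfra* was 2.30-fold higher. Of the 14 described factors 5 were higher and 2 lower by 2-fold, and the Hox genes, which record body position, included 0 higher and 1 lower of 11. *Meox1*, *Osr1* and *Osr2* reached 20 CPM through Palo only and *Scx* through Vehicle only, which favored their directions. Over all described genes 5.61% were higher and 4.25% lower.

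**Figure D4:**
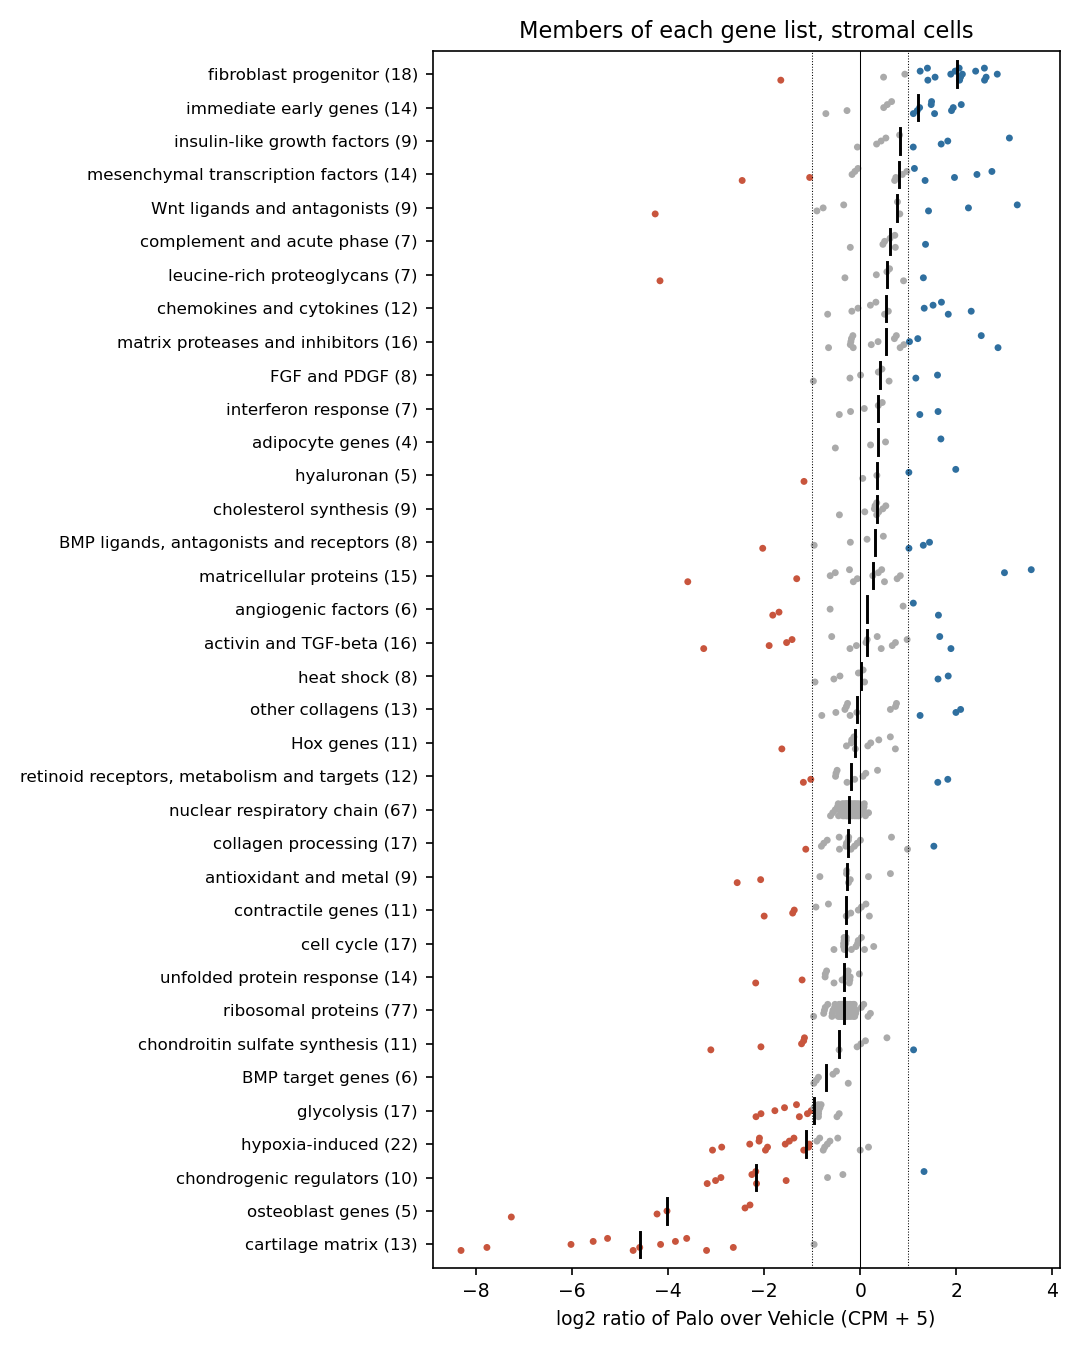
Log2 ratio of Palo over Vehicle (x axis, CPM plus 5) for each described member (points) of each gene list (y axis, number of members in parentheses), with black bars for list medians and dotted lines at 2-fold. Cartilage matrix (-4.59), osteoblast (-4.03) and chondrogenic regulator genes (-2.17) lie at the low end and fibroblast progenitor genes (2.02) at the high end.

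Genes of the wider matrix lay on both sides. *Tnn*, tenascin W, which is laid down around forming bone, was at 861 CPM in Vehicle, 66.8 CPM in Palo and 38.3 CPM in Matrigel-only, and *Tnc*, tenascin C, at 2240, 891 and 713 CPM. *Thbs4*, a thrombospondin of tendon, was 11.6-fold higher (9.79 and 113 CPM). The fibril-associated *Col14a1* (283 and 1138 CPM) and *Col5a3* (364 and 1563 CPM) were higher, as were the aggrecanase *Adamts5* (74.9 and 452 CPM) and the gelatinase *Mmp9* (8.69 and 94.9 CPM). Of 11 contractile genes 3 were at least 2-fold lower and 0 higher, and without cells holding cartilage UMIs 6 of 13 were lower and 0 higher (median -0.82). Over all described genes 4.25% were lower by 2-fold, and 2.64% without those cells. *Acta2*, smooth muscle actin, stood at 828 and 316 CPM in Vehicle and Palo, and *Tagln*, transgelin of the same contractile apparatus, at 301 and 327 CPM, with log2 ratios of 0.12 in all stromal cells and -0.41 without those cells.

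Genes of the glycosaminoglycans did not share a direction. Of 11 genes of chondroitin sulfate synthesis, the sugar chains of aggrecan, 5 were at least 2-fold lower and 1 higher (median -0.44). Without cells holding cartilage UMIs 1 was lower and 0 higher (median -0.07). *Slc26a2*, the sulfate transporter that supplies them, was at 385 CPM in Vehicle and 40.1 CPM in Palo. For hyaluronan, the synthase *Has2* was lower (117 and 49.0 CPM), and *Has1* (10.4 and 26.1 CPM) and the receptor *Cd44* (178 and 720 CPM, 492 CPM in Matrigel-only) were higher. In all stromal cells 4.25% of all described genes were lower and 5.61% higher by 2-fold.

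Growth factor lists differed from each other. Of 9 insulin-like growth factor genes 4 were at least 2-fold higher and 0 lower (median 0.82), with *Igfbp6*, a binding protein with preference for IGF-II, at 310, 1107 and 1918 CPM in Vehicle, Palo and Matrigel-only. Of 9 Wnt ligands and antagonists 3 were higher, the ligand *Wnt2* (14.8, 89.4 and 122 CPM) and the antagonists *Dkk2* and *Sfrp2*, and 1 was lower, *Frzb*, an antagonist of articular cartilage (96.4, 0.253 and 0.748 CPM). Of 8 FGF and PDGF genes 2 were higher and 0 lower, with a median of 0.41 in all stromal cells and of -0.06 when cells with cartilage UMIs were left out. Of 6 angiogenic factors 2 were lower, *Pgf* and *Angpt1*, and 2 higher, *Angptl1* and *Angptl4*. *Vegfa*, which was lower (292 CPM in Vehicle, 72.8 CPM in Palo), is counted with the hypoxia-induced genes and not here. Over all described genes 4.25% were lower and 5.61% higher by 2-fold.

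Among 17 collagen processing genes 1 was higher, the crosslinking oxidase *Loxl1* (223 and 654 CPM in Vehicle and Palo), and 1 lower, the lysyl hydroxylase *Plod2* (919 and 415 CPM). Over all described genes 4.25% were lower and 5.61% higher, so 1 of 17 is near those shares. By 2-fold, 1 of 7 leucine-rich proteoglycans was lower and 1 higher, and 2 of 15 matricellular genes were lower and 2 higher. Of 13 other collagens 3 were higher and 0 lower, and of 16 proteases and inhibitors 4 higher and 0 lower. Of 9 cholesterol synthesis genes 0 passed 2-fold, and of 4 adipocyte genes 1 was higher, *Lpl*, lipoprotein lipase (66.4, 223 and 494 CPM with Matrigel-only last).

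Secreted immune signals were higher in part. *Ccl2*, a chemoattractant of monocytes, was at 103 CPM in Vehicle, 530 CPM in Palo and 437 CPM in Matrigel-only, and *Cxcl12*, which retains progenitors and leukocytes, at 67.7, 229 and 304 CPM. *Cxcl14* was at 55.8, 148 and 218 CPM. Of 12 described chemokines and cytokines 5 were higher and 0 lower by 2-fold, of 7 interferon response genes 2 higher, and of 7 complement genes 1 higher, *C1s1*, a protease of the classical pathway. The share higher over all described genes was 5.61%.

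Leukocyte RNA moved in the same direction. Of 9 described macrophage markers 5 were at least 2-fold higher, against 5.61% of all described genes. *Lyz2*, lysozyme, was at 148 CPM in Vehicle and 431 CPM in Palo, and at 8050 and 13774 CPM in the remaining cells. The antigen presentation genes *H2-Aa*, *H2-Ab1* and *Cd74* were higher too, while the dendritic markers *Flt3* and *Xcr1* were under 0.2 CPM. Cells with 0.5% or more UMIs from 8 leukocyte genes numbered 49 in Vehicle (3.57%) and 78 in Palo (6.59%). With these cells left out the log2 ratio of *Ccl2* was 2.39, against 2.31 with them, and that of *Cxcl12* 1.65, against 1.69. This step leaves any leukocyte RNA in the other stromal cells, whose part was not tested. In thinned cells *Ccl2* was detected in 9.94% of Vehicle and 25.9% of Palo stromal cells, and in 35.5 and 31.9% of the remaining cells. *Cxcl12* was detected in 11.8 and 38.6% of the stromal and in 0.416 and 0.836% of the remaining cells.

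Immediate early genes, which many stimuli switch on within minutes, were also higher. *Egr1* was at 28.2 CPM in Vehicle, 138 CPM in Palo and 140 CPM in Matrigel-only, and *Fosb* at 16.8, 76.2 and 70.0 CPM. Of 14 genes 9 were at least 2-fold higher and 0 lower, with a median of 1.21, and per cell 70.3% of the Palo cells were above the Vehicle median. Over all described genes 5.61% were higher by 2-fold. The list was not higher in stromal cells alone. It summed to 1524 CPM in Vehicle and 2277 CPM in Palo stroma, and to 4064 and 4930 CPM in the remaining cells. What lay behind this was not tested. *Hspa1a* and *Hspa1b*, heat shock genes so alike that their reads can be confused, had log2 ratios of 1.83 and 1.62. The heat shock list as a whole was not shifted. Of its 8 genes 4 were lower and 4 higher by any amount, with a median of 0.01, and only 2 passed 2-fold.

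Of 17 cell cycle genes 0 passed 2-fold in either direction, with *Top2a*, the topoisomerase of dividing cells, at 108 CPM in Vehicle and 84.6 CPM in Palo. The metallothioneins, which bind zinc and copper, were lower, *Mt1* at 3583, 602 and 1104 CPM in Vehicle, Palo and Matrigel-only and *Mt2* at 974, 227 and 377 CPM. All 14 described genes of the unfolded protein response were lower by some amount, with a median of -0.34, and 2 passed 2-fold, *Trib3* and *Asns*, both targets of the amino acid response. By any amount 50.8% of all described genes were lower, and by 2-fold 4.25%. This list summed to 5698 CPM in Vehicle and 4264 CPM in Palo stroma. It was lower in the remaining cells too, at 4278 and 2665 CPM. Hemoglobin RNA was scarce, *Hbb-bs* at 84.4 CPM in Vehicle and 2.46 CPM in Palo, and its part in the other differences was not tested.

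Most Vehicle stromal cells held cartilage UMIs, so each ratio was taken again in the 502 Vehicle and 1180 Palo stromal cells with 0 UMIs of *Acan* and *Col2a1*, the genes used for that choice. Of 6708 genes then described, 177 (2.64%) were at least 2-fold lower and 197 (2.94%) higher. Of the 289 and 381 genes past 2-fold in all stromal cells, 171 and 188 were past it here too. That second count set no minimum level in these cells, so it is not a part of the 177 and 197. The hypoxia-induced median was -0.92, the glycolysis median -0.73 and the fibroblast progenitor median 1.14, all in the former direction. *Inhba* had a log2 ratio of -3.59, *Ibsp* -5.93, *Fmod* -3.63 and *Dlk1* 4.27, each still past 2-fold.

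Other groups moved with the cells that held cartilage UMIs. The median of chondrogenic regulators was -0.72 without those cells, *Sox9* had -1.79 and *Cyp26b1* -0.62. The medians of the complement (-0.17), chemokine (-0.02) and interferon (-0.45) lists changed sign, as did *C3* (0.47 in all stromal cells and -0.48 without those cells). The immediate early genes had a median of 1.25, and *Ccl2* a log2 ratio of 1.32.

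**Figure D5:**
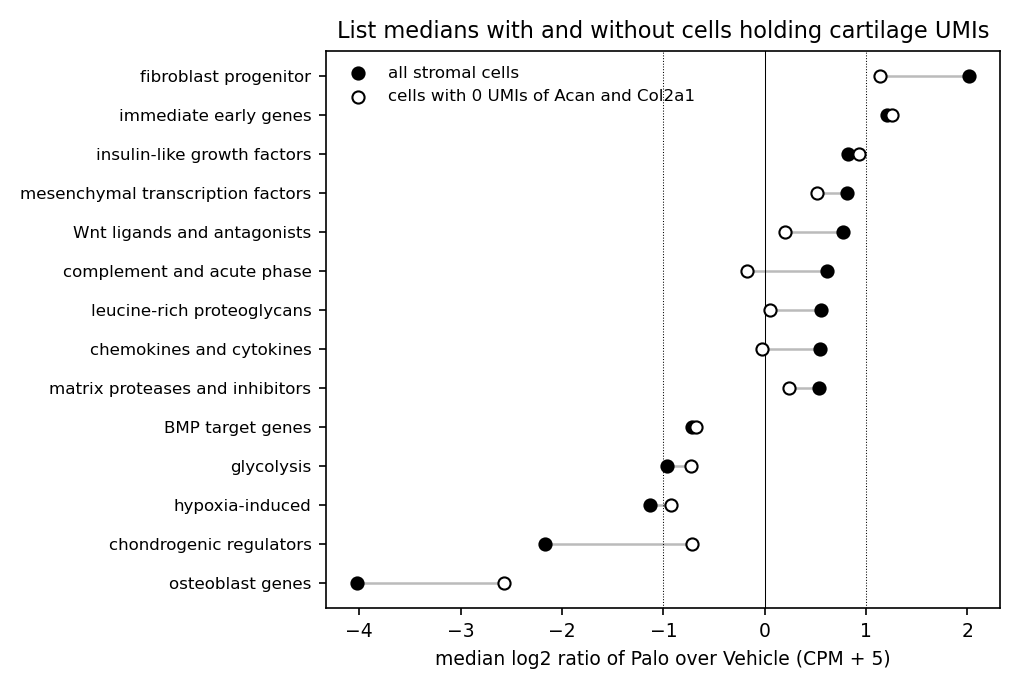
Median log2 ratio of Palo over Vehicle (x axis, CPM plus 5) of gene lists with at least 5 described members and a median of at least 0.5 in size (y axis), in all stromal cells (filled) and in cells with 0 UMIs of *Acan* and *Col2a1* (open). Hypoxia-induced genes moved from -1.13 to -0.92 and fibroblast progenitor genes from 2.02 to 1.14.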

How the data were processed

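Cells of day 5 masses, dissociated with dispase, were measured by droplet RNA sequencing in 1 library per group. Per the labels and the study's methods, Cell Ranger 3.0.2 and the mm10 genome gave a UMI count for every gene and barcode, which the authors deposited without normalization. Cells with 200 to 6000 genes and at most 5% mitochondrial UMIs were kept, and the 5 genes of the stromal rule were summed per cell. UMIs were then summed per gene over stromal cells and divided by their total, 23591212 in Vehicle, 15832240 in Palo and 20049136 in Matrigel-only, as CPM. With 1 library per group no count model was fitted. Levels carry exact Poisson and shares Clopper-Pearson 95% intervals, and shares were computed after thinning cells to 3100 UMIs. No doublet caller was run, and the limit of 6000 genes and an alternative without cells of 0.5% or more leukocyte UMIs stood in for one.

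Genes were named by size of ratio, 15 per direction among those at least as high in stromal as in remaining cells, together with up to 6 members of each list, 17 genes of the study's questions and the 5 rule genes. Other list members are named to show the range of a list, and were chosen after their values were seen. The members and the 36 lists and 14 marker lists were chosen with earlier results of these data known. Symbols borne by more than 1 gene (35) were left out of the lists, *Aldoa* among them. Gene starts were those of GENCODE vM21 and promoters those of RefSeq. TMM factors for 1 alternative came from edgeR 4.0.16 (R 4.3.3), and all else from scipy 1.17.1, numpy 2.4.6 and pandas 2.3.3 under Python 3.11.15, with plots by matplotlib 3.10.9. The calculations were tested on simulated data, and 14 alternatives were computed.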

Additional observations from a re-analysis of the deposited data

How the results depend on the processing

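No paired analysis was possible because each group had 1 library and no replicate numbers. For the same reason no library could be left out. Of 14 alternatives 1, the restriction to genes at least as high in stromal as in remaining cells, was added after the data were seen. It left 249 genes lower and 305 higher.

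The following counts, shares and list medians moved. At 2% stromal UMIs or more, the difference in stromal share was 7.14 percentage points. With 20 CPM added, 179 genes were lower and 206 higher by 2-fold, and the cartilage matrix median was -3.05. With a minimum of 50 CPM, 169 were lower and 251 higher. In cells with 0 UMIs of *Acan* and *Col2a1*, 177 were lower and 197 higher, and the medians were -1.32 for cartilage matrix (4 genes left), -0.73 for glycolysis and 1.14 for fibroblast progenitor genes. The construction of these alternatives gives fewer genes, fewer cells or smaller ratios. With TMM scaling 309 were lower and 356 higher, and with the 5 rule genes left out of the total 281 and 425. A list median counted as moved when it left a 95% interval drawn from the ratios of the list's own members, which is wide for short lists. By this rule 459 of 468 list medians did not move and 9 did. The complement median, 0.62 in all stromal cells and -0.17 without cells holding cartilage UMIs, counted as not moved although its sign changed. For named genes the limit was an interval around the main log2 ratio. Of their 2596 values 2167 stayed within it and 429 moved, while 0 of those past 2-fold changed direction.

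Depth limits the scarce genes: a gene with 3 UMIs in Palo has 0.189 CPM, and *Rarb*, *Crabp1* and *Bglap* rest on few UMIs in Vehicle.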

Other observations

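Several of the largest differences lay in genes outside every list, taken here by rank of ratio. *Slpi*, a secreted inhibitor of leukocyte proteases, was at 214 CPM in Vehicle, 1.52 CPM in Palo and 1.30 CPM in Matrigel-only stromal cells. In the remaining cells it was at 31.5 CPM in Vehicle and 41.7 CPM in Palo, the opposite direction. *Nrn1*, neuritin, a membrane-anchored neurite growth protein, stood at 258, 6.19 and 12.1 CPM, and *Grb14*, an adaptor that inhibits the insulin receptor, at 122, 2.15 and 2.84 CPM. *Cox4i2*, an isoform of a cytochrome oxidase subunit, had 306, 13.7 and 17.9 CPM, whereas the respiratory chain list as a whole had 0 members past 2-fold. *Wwp2*, a ubiquitin ligase expressed in cartilage, was at 532, 35.1 and 25.5 CPM, *Sdc3*, the heparan sulfate proteoglycan syndecan-3, at 556, 61.5 and 70.6 CPM, and *C1qtnf3*, a secreted protein of cartilage and fat, at 1614, 212 and 152 CPM.

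On the higher side, *Il1rl1*, the receptor of interleukin-33, was at 3.52 CPM in Vehicle, 65.9 CPM in Palo and 39.6 CPM in Matrigel-only stromal cells. In the remaining cells it was at 19.0 CPM in Vehicle and 35.3 CPM in Palo, the same direction. *Ntn4*, the basement membrane protein netrin-4, was at 3.31, 51.0 and 58.8 CPM, and *F2r*, the thrombin receptor, at 9.11, 87.7 and 48.2 CPM. *Mfap2*, a microfibril protein, had 50.6, 332 and 359 CPM, *Aqp1*, a water channel, 40.1, 236 and 104 CPM, and *Cdkn1c*, an inhibitor of the cell cycle, 12.1, 84.6 and 54.5 CPM. For *Il1rl1*, *F2r*, *Aqp1* and *Cdkn1c* the Palo level was above both other libraries.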
